A study of Mus musculus with 6 samples.

Results

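A panel of 34 genes of sinusoidal endothelium and its basement membrane was described in arrays of sorted haematopoietic stem cells (HSC), out of 18193 genes with a probe set of their own. The members were chosen from textbook knowledge of vessel genes and selected on their uneven levels between the arrays of this series, so those levels are given here as a description. All 34 were measured, by 69 of the 45101 probe sets whose platform annotation names exactly 1 of these genes. The arrays came from bone marrow cells sorted as CD150+ CD48- KSL, a gate that enriches HSC, taken at 6 to 8 weeks of age from Lig4mut mice and from littermates that are WT (Lig4+/+), both out of crosses between Lig4mut/+ parents. There were 3 arrays of each genotype, called biological replicates by the submitters. Lig4 encodes DNA ligase IV, the enzyme that joins broken DNA ends in the non-homologous pathway. Neither the nature of the mutation nor the number of mice behind an array is stated in the labels, so p-values measure only the spread between these arrays.

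Marrow sinusoids are wide, thin-walled venous vessels with an open basement membrane, through which blood cells enter the circulation. Their endothelium carries the receptors and junction proteins common to all vessels (Cdh5, Kdr, Tie1) and, in addition, scavenger receptors that take up waste from the blood (Stab1, Stab2) and the receptor Flt4, shared with lymphatic vessels. HSC lie close to these vessels and share some of their genes, since blood and endothelium arise from a common precursor in the embryo. Of the members, 5 were listed as well known in HSC too, namely Pecam1, Eng, Emcn, Egfl7 and Tie1. The other 29 were left off that list and are called not known in HSC below. The split is a choice of list, and whether HSC express some of the 29 was not tested. Some of the 29 are made by other marrow cells, such as Sparc by megakaryocytes and stroma, Fabp4 by adipocytes and macrophages, and Lepr by perivascular stromal cells.

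Levels are log2 values, quantile normalized across the 6 arrays, of the probe set with the highest mean of each gene. A step of 1 is a doubling, and the lowest value an array can show is 3. A level belongs to its probe set, so levels are compared between arrays and never between genes. These are bulk RNA samples, in which fewer cells of a type and less RNA per cell cannot be told apart.

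Markers of the sorted cells were bright. Of 14 HSC and sort markers 12 were measured, and their mean level was between 10.43 and 10.64 in the WT arrays and between 9.55 and 10.23 in the Lig4mut arrays. Kit, the stem cell factor receptor, lay between 9.56 and 10.95 on all arrays. The Lig4 probe set read 7.53, 6.66 and 7.63 in WT arrays against 4.97, 3.16 and 3.10 in Lig4mut arrays. Deposited array medians were 6.29 to 6.34 in WT and 5.97 to 6.05 in Lig4mut. Lig4mut replicate 2 stood apart by its granulocyte transcripts, with a list mean of 10.57 against 6.08 to 8.20 on the other arrays, and by the lowest HSC marker mean, 9.55.

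Among the members, WT replicate 1 was the array most often lowest. It was the lowest of the 6 arrays for 21 of the 34 members, against 18.1% of all genes, and the lowest of the 3 WT arrays for 28, against 35.9%. For 9 members, Nid1, Cdh5, Sparc, Fabp4, Thbd, Stab2, Flt4, Cldn5 and Ptprb, it lay at least 1 below every other array. Over all genes 0.5% did so (91 of 18193), and as the unevenness chose the members, that share is given for scale only. Ranked over all genes by this gap, Nid1 was at 1, Cdh5 at 2 and Sparc at 8. Just short of the step of 1 was Mmrn2, with a gap of 0.92, and just past it Ptprb, with 1.67. The count was 9 in the values as deposited and with cyclic loess, 10 with median-centred arrays and 11 where probe sets were averaged per gene.

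**Figure D1:**
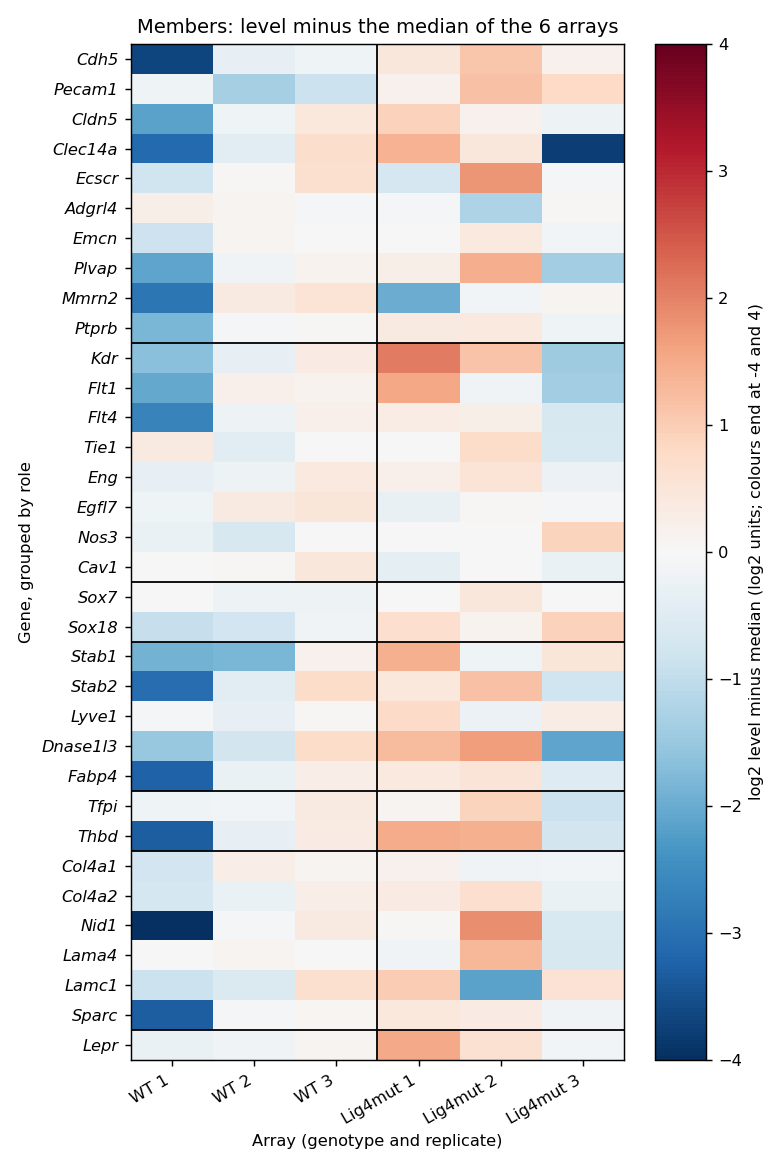
Each row is a member, grouped by role, and each column an array; colour gives the log2 level minus that gene's median over the 6 arrays, blue for lower and red for higher. The column of WT replicate 1 holds the lowest value for 21 of the 34 genes, and the vertical line parts the genotypes.

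Promoters are shown for those of the 9 genes low in WT replicate 1 that have a window in the RefSeq table (GRCm38.p6). These genes were picked for that array, and a shared regulation of them was not tested. A window runs from 250 bases before the start of the gene to 50 after it, on the strand of the gene, 5′ to 3′. Capitals mark GGAA, the core letters of sites bound by ETS factors such as Erg and Fli1, or its complement TTCC. Nid1 lies at chr13:13437352-13437651 (plus strand), Sparc at chr11:55420031-55420330 (minus strand), Stab2 at chr10:87007893-87008192 (minus strand), Flt4 at chr11:49609429-49609728 (plus strand) and Cldn5 at chr16:18776597-18776896 (plus strand).
Nid1: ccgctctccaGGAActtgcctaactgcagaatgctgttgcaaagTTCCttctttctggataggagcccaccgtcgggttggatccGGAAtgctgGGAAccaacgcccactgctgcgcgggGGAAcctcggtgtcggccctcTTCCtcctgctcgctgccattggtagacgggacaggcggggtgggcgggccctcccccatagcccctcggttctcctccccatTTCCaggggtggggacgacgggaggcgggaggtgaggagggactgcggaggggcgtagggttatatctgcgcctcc
Sparc: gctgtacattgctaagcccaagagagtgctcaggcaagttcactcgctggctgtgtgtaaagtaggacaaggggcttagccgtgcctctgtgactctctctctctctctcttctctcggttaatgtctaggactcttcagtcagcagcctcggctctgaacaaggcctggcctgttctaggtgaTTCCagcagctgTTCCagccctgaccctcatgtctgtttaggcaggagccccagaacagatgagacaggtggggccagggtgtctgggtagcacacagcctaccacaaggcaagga
Stab2: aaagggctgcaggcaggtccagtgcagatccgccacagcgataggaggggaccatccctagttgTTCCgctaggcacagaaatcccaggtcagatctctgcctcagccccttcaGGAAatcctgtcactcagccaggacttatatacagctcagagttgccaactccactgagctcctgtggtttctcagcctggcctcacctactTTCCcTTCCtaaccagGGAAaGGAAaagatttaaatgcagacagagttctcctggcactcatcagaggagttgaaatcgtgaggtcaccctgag
Flt4: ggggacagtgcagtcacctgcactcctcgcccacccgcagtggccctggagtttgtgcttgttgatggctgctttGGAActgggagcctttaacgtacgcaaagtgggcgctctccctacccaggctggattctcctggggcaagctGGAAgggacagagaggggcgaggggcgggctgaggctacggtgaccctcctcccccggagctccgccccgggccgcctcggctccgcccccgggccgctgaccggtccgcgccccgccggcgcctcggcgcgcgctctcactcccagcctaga
Cldn5: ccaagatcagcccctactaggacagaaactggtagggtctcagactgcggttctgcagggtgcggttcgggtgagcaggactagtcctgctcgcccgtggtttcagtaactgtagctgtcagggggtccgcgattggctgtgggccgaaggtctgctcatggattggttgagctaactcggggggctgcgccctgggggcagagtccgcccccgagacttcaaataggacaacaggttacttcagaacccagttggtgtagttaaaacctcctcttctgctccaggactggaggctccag

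GGAA, searched on both strands, occurred 7 times in the window of Nid1, 6 times in that of Stab2 and 2 times each in those of Sparc and Flt4, and 0 times in that of Cldn5, which has no capitals. Windows were found for 19 of the 34 members, 24 windows in all because some genes have several starts. Of these, 23 held GGAA, or 95.8% against 96% of all 32851 windows. AACAAT, the core of sites for SOX factors such as the members Sox7 and Sox18, was in 2 of the 24 (8.33%, against 10.7% of all windows), those being Emcn and 1 window of Tfpi. The core letters for factors such as Gata2, AGATAA, were in 1 (4.17%, against 11.2%), the same window of Tfpi. All 3 motifs were searched on both strands and overlapping matches were counted. A match is a run of letters and not a shown binding site. The window of Cldn5 held none of the 3.

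Of the 10 junction and surface genes of endothelium, 3 were lowest in WT replicate 1 by at least 1. Cdh5 encodes VE-cadherin, the adhesion protein of endothelial junctions, with levels of 6.80, 10.12 and 10.28 in the WT arrays (replicates 1, 2, 3) and 10.90, 11.57 and 10.64 in the Lig4mut arrays (same order). WT replicate 1 was thus 10.6-fold below the mean of WT replicates 2 and 3 (log2 -3.40), which differed from each other by 0.16. The other probe set of Cdh5 had 4.37, 7.88 and 7.54 in WT and 8.27, 10.16 and 6.02 in Lig4mut, with WT replicate 1 again lowest. Cldn5, the tight junction claudin of endothelium, had 6.42, 8.38 and 8.97 in WT and 9.48, 8.74 and 8.36 in Lig4mut. Ptprb, a receptor phosphatase of endothelial cells that acts on VE-cadherin and Tek, had 5.78, 7.56 and 7.67 in WT and 7.98, 8.00 and 7.45 in Lig4mut. All 3 had WT replicate 1 lowest, by a gap of 1.67 to 3.32.

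Plvap, the diaphragm protein of fenestrated endothelium, had 8.07, 10.02 and 10.33 in WT and 10.42, 11.65 and 8.78 in Lig4mut. Its low arrays were WT replicate 1 and Lig4mut replicate 3. Clec14a, a C-type lectin of vessels, had the same 2 low arrays, with 4.70, 7.36 and 8.51 in WT and 9.20, 8.26 and 4.05 in Lig4mut. Mmrn2, a matrix protein that binds Clec14a, had 6.93, 10.19 and 10.37 in WT and 7.86, 9.73 and 9.94 in Lig4mut. In this probe set WT replicate 1 and Lig4mut replicate 1 were low. Its other probe sets differed in Lig4mut replicate 1. That array was the highest at 9.34 in one and lay at 8.06, below only Lig4mut replicate 3 (8.18), in the next. In a dim probe set it was the lowest at 3.00. Ecscr, an endothelial surface protein, ranged from 7.84 in WT replicate 1 to 10.40 in Lig4mut replicate 2. Adgrl4, an adhesion receptor of the latrophilin group, behaved otherwise, with its lowest level of 9.93 in Lig4mut replicate 2 and 11.09 to 11.40 in the other arrays. Lig4mut replicate 2 was also the lowest array for 7 of the 12 measured HSC and sort markers.

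The 5 members also known in HSC had mostly narrower ranges in the probe sets used here. Eng, the endoglin co-receptor of TGF-beta, had 10.85, 11.00 and 11.56 in WT and 11.37, 11.75 and 10.94 in Lig4mut. Emcn, the sialomucin endomucin, had 9.74, 10.69 and 10.60 in WT and 10.56, 10.98 and 10.47 in Lig4mut. Egfl7, a secreted vessel protein, had 9.43, 9.94 and 10.08 in WT and 9.29, 9.62 and 9.55 in Lig4mut, and Tie1, an orphan receptor kinase of endothelium and HSC, had 10.49, 9.68 and 10.12 in WT and 10.13, 10.85 and 9.51 in Lig4mut. In these 4 genes the genotypes overlapped and WT replicate 1 lay within 1 of the mean of the other WT arrays. Pecam1, the adhesion molecule CD31, had 9.48, 8.30 and 8.79 in WT and 9.80, 10.80 and 10.42 in Lig4mut, with WT replicate 1 the highest of the WT arrays. The range over the 6 arrays had a median of 1.24 for these 5 genes, of 3.06 for the other 29 members and of 1.34 for all genes.

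**Figure D2:**
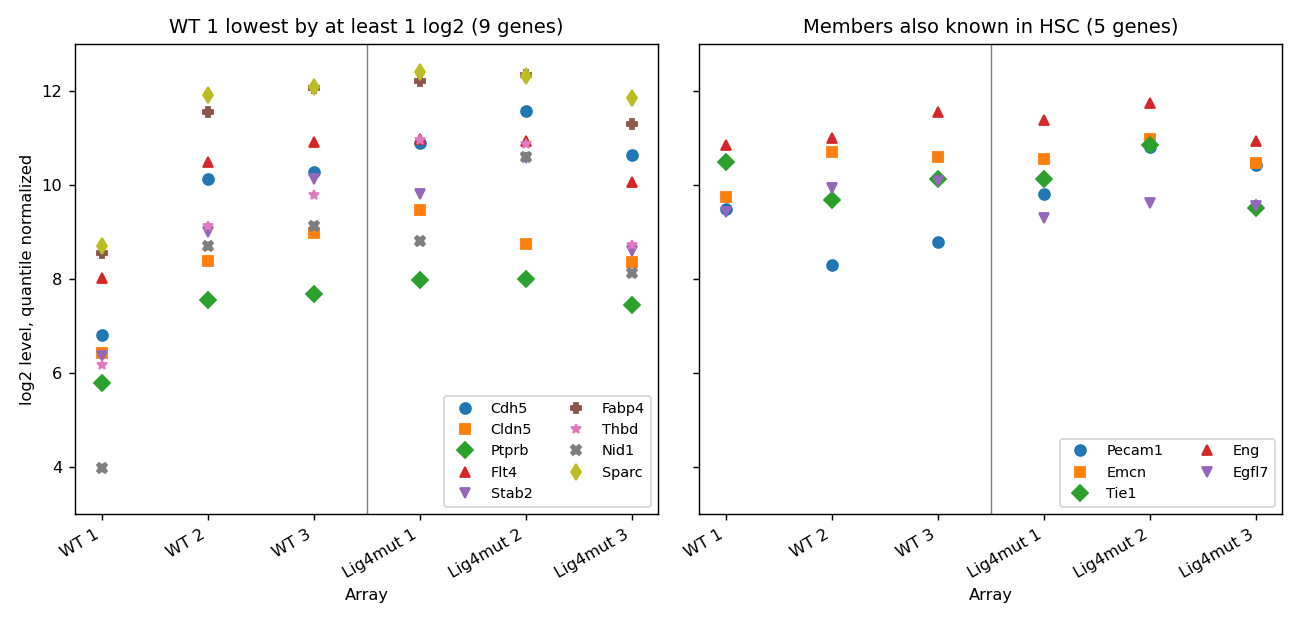
The log2 level of each gene (quantile normalized, vertical axis) in each of the 6 arrays (horizontal axis), for the 9 members with WT replicate 1 lowest by at least 1 on the left and for the 5 members also known in HSC on the right. On the left Nid1 drops to 3.97 in WT replicate 1, and on the right every level lies between 8.30 and 11.75.

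Among the receptors for vascular growth factors, the 3 VEGF receptors had WT replicate 1 lowest. Flt4, or VEGFR3, had 8.02, 10.49 and 10.90 in WT and 10.98, 10.94 and 10.06 in Lig4mut, so that WT replicate 1 was 6.37-fold below the other WT arrays. Kdr, or VEGFR2, the main receptor for vessel growth, had 6.08, 7.43 and 8.06 in WT and 9.81, 8.87 and 6.31 in Lig4mut. Flt1, or VEGFR1, had 4.45, 6.70 and 6.64 in WT and 8.05, 6.34 and 5.11 in Lig4mut. In Kdr and Flt1 Lig4mut replicate 3 was the next lowest array, and Lig4mut replicate 1 the highest. The signalling genes Nos3, the endothelial nitric oxide synthase, and Cav1, a coat protein of caveolae, did not follow: Nos3 lay between 4.76 and 6.29 with its lowest level in WT replicate 2, and Cav1 between 3.50 and 4.30, close to the floor.

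The sinusoid genes split in the same way. Stab2, a hyaluronan scavenger receptor that marks sinusoidal endothelium, had 6.37, 8.99 and 10.14 in WT and 9.81, 10.57 and 8.60 in Lig4mut, with WT replicate 1 9.17-fold below the other WT arrays. Stab1, its relative, also made by macrophages, had 6.86, 6.93 and 8.91 in WT and 10.17, 8.59 and 9.24 in Lig4mut, so here both WT replicates 1 and 2 were low. Dnase1l3, a secreted nuclease, had 5.47, 6.24 and 7.72 in WT and 8.25, 8.64 and 4.88 in Lig4mut, with Lig4mut replicate 3 and WT replicate 1 lowest. Fabp4, a fatty acid carrier of capillaries and adipocytes, had 8.56, 11.55 and 12.06 in WT and 12.20, 12.33 and 11.30 in Lig4mut, and its other 3 probe sets had WT replicate 1 below the mean of WT replicates 2 and 3 by 3.14 to 3.44. Lyve1, the hyaluronan receptor of lymphatic and some sinusoidal endothelium, lay between 5.39 and 6.49, and its other probe set was at the floor on 5 of 6 arrays, so a defining gene of the label was dim or unmeasured here.

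Of the 2 genes of coagulation control, Thbd was lowest in WT replicate 1 and the main probe set of Tfpi was not. Thbd, or thrombomodulin, which turns thrombin against clotting on the vessel wall, had 6.16, 9.13 and 9.79 in WT and 10.96, 10.88 and 8.72 in Lig4mut. WT replicate 1 was 9.85-fold below the other WT arrays. Tfpi, the inhibitor of the tissue factor pathway, had 10.94, 10.99 and 11.47 in WT and 11.22, 11.98 and 10.26 in Lig4mut, with Lig4mut replicate 3 lowest. Its 3 other probe sets all had a lower WT replicate 1 relative to WT replicates 2 and 3 than the main one (-0.29). In 2 of them, with differences of -1.20 and -1.27, it was the lowest of the 6 arrays.

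The basement membrane gene Nid1 held the widest range of all members. Nidogen 1, its product, links laminin to type IV collagen. Its levels were 3.97, 8.70 and 9.12 in the WT arrays (replicates 1, 2, 3) and 8.80, 10.60 and 8.12 in the Lig4mut arrays (same order), a range of 6.63, and WT replicate 1 was 30.6-fold below the other WT arrays. A second probe set had 5.28, 8.32 and 9.28 in WT and 7.48, 9.21 and 7.63 in Lig4mut, while the remaining one stayed between 3.00 and 3.82 on all arrays. Sparc, a matrix protein that binds collagen, had 8.70, 11.91 and 12.07 in WT and 12.40, 12.31 and 11.86 in Lig4mut, and a second probe set repeated this, with 6.98 in WT replicate 1 and 10.84 to 12.02 elsewhere. The third probe set of Sparc lay between 5.89 and 6.49 in every array.

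By their main probe sets, none of the collagen and laminin genes had WT replicate 1 lowest by at least 1. Col4a1 and Col4a2, the 2 chains of the common type IV collagen, had it lowest by 0.61 and 0.45. The other probe set of Col4a1 set it further apart, with 8.85, 9.97 and 10.56 in WT and 11.03, 10.99 and 11.39 in Lig4mut. Lama4, a laminin chain of vessel walls, ranged from 5.50 in Lig4mut replicate 3 to 7.48 in Lig4mut replicate 2, and Lamc1, the laminin gamma 1 chain, from 5.93 in Lig4mut replicate 2 to 9.11 in Lig4mut replicate 1. Both thus had their lowest array among the Lig4mut replicates. Lepr, the leptin receptor that marks perivascular stroma, had 4.78, 4.89 and 5.14 in WT and 6.54, 5.63 and 4.94 in Lig4mut, with Lig4mut replicate 1 highest.

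The transcription factor genes Sox7 and Sox18 were ordered by genotype. By their main probe sets, WT replicate 1 was the lowest array for Sox18 only, by 0.18. Both encode SOX factors of endothelial development. Sox18 had 9.38, 9.56 and 10.17 in WT and 10.98, 10.45 and 11.23 in Lig4mut, and Sox7 had 5.60, 5.41 and 5.43 in WT and 5.65, 6.07 and 5.66 in Lig4mut. In both genes every Lig4mut array lay above every WT array. For Sox7 the difference between the genotypes changed sign in the values as deposited.

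Where a gene had several probe sets, they mostly told of the same arrays. Of 35 further probe sets in 20 genes, 31 had WT replicate 1 on the same side of the mean of WT replicates 2 and 3 as the main probe set. The 4 others belonged to Lamc1, Lyve1, Sox7 and Sparc. Correlated with the main probe set over the 6 arrays, 30 of the 35 had r above 0, with a median r of 0.665. These arrays are shared by all probe sets, so r is a description.

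Relative to the other WT arrays, the low level of WT replicate 1 had a median of -1.50 over the 29 members not known in HSC and of -0.43 over the 5 known there, with 0.00 over all genes. WT replicates 2 and 3 differed from each other by a median of 0.42 and 0.44 in these 2 sets. Among 50 measured endothelial genes outside the panel, listed with earlier results of these arrays known, the median was -0.52, and 8 of them, or 16% in place of 0.5% of all genes, had WT replicate 1 lowest by at least 1. These were Ramp2, Aplnr, Gpihbp1, Tm4sf1, Gpr182, Mrc1, Ushbp1 and Vcam1. Aplnr, the apelin receptor of venous endothelium, had 5.47, 10.51 and 8.63 in WT and 11.54, 8.71 and 9.82 in Lig4mut. Gpr182, a receptor of sinusoids, had 5.22, 6.45 and 6.92 in WT and 7.27, 7.23 and 6.68 in Lig4mut. In the other direction, Jam2, a junction protein gene (2.02), Arhgef15, an exchange factor gene (2.05), and Fcgr2b, an Fc receptor gene also found on sinusoids (1.54), were higher in WT replicate 1 than in WT replicates 2 and 3. Endothelial genes that HSC share varied: Erg had 11.34 to 11.38 and Procr 10.80 to 11.05 in WT, while Vwf, the von Willebrand factor, had 8.46, 9.18 and 10.20 and Fgd5, an HSC marker, 8.79, 10.14 and 9.80. For 16 other basement membrane and matrix genes the median was -0.46, with none lowest in WT replicate 1 by 1.

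Lists of other cell types had smaller shifts in WT replicate 1. The median difference from WT replicates 2 and 3 was -0.08 for HSC and sort markers, -0.30 for mesenchymal stroma, -0.16 for megakaryocytes, 0.06 for smooth muscle and pericytes, 0.12 for adipocytes, 0.41 for granulocytes, 0.20 for macrophages, -0.13 for B cells, -0.01 for T and NK cells and 0.02 for erythroid cells. WT replicate 1 was lowest by at least 1 for 2 of 17 stromal genes (Cxcl12 and Vcam1), 2 of 14 macrophage genes (Mrc1 and Vcam1) and 1 of 12 megakaryocyte genes (Clec1b). Mrc1 and Vcam1 stand on the endothelial list too. Cxcl12, the niche chemokine of stroma and endothelium, had 4.97, 8.57 and 9.61 in WT and 9.62, 10.27 and 6.70 in Lig4mut. Foxc1, a transcription factor gene of marrow stroma, had 4.13, 5.90 and 6.23 in WT and 7.75, 4.48 and 4.23 in Lig4mut. Adipoq, the adiponectin gene, had 3.46, 3.66 and 7.15 in WT. Its difference of -1.95 in WT replicate 1 from the mean of WT replicates 2 and 3 thus came from WT replicate 3. Pdgfra, with 4.72 to 5.47, and Dcn, with 4.95 to 5.76, were dim and flat over the 6 arrays. The mean level of the 17 stromal genes was 5.41, 5.79 and 6.48 in WT and 6.25, 6.41 and 5.81 in Lig4mut, and of the 34 members 7.37, 8.55 and 9.02 in WT and 9.22, 9.29 and 8.43 in Lig4mut. Some stromal genes were dim on several arrays, Lum with 3.40 to 4.02 and Adipoq with 3.46 to 7.83. The part of other cell types in the members' levels was not tested.

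**Figure D3:**
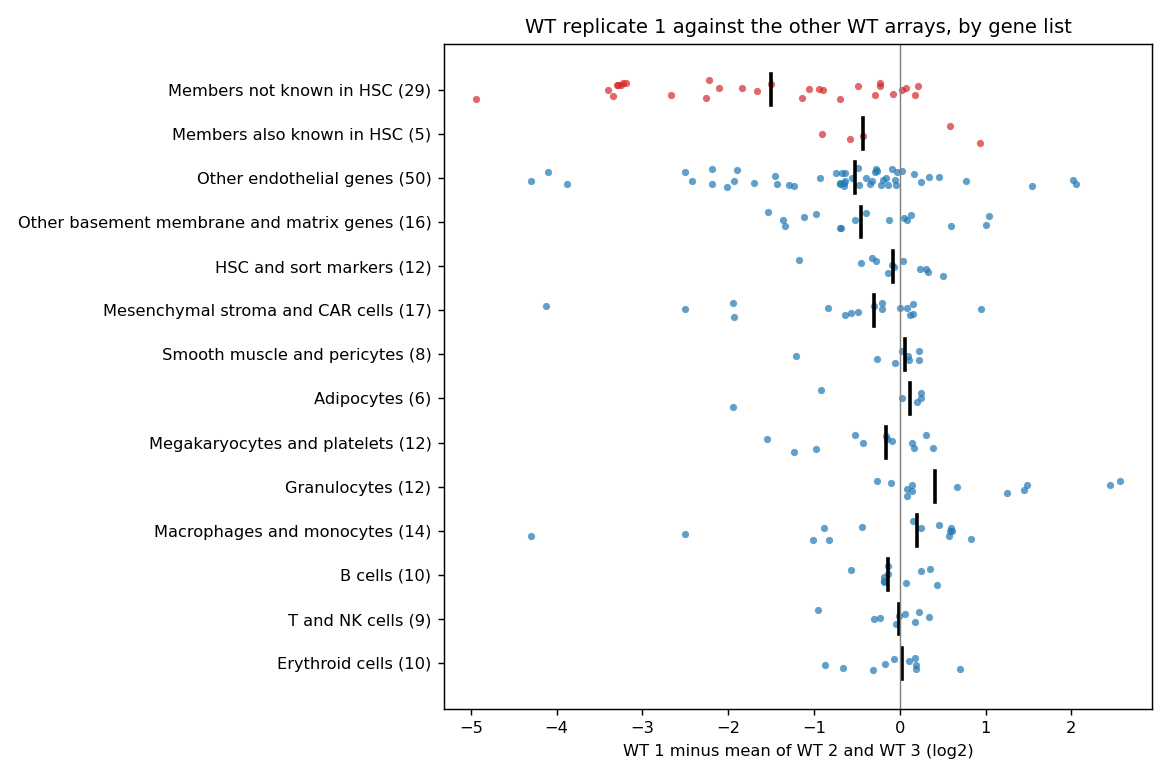
Each point is a gene; the horizontal axis gives its log2 level in WT replicate 1 minus the mean of WT replicates 2 and 3, by gene list, with the number of measured genes in brackets and a bar at the list's median. The 29 members not known in HSC have their median at -1.50, against -0.08 for the HSC and sort markers.

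Outside the panel, the genes with the widest gap below all other arrays in WT replicate 1 were, by a choice made after the values were seen, Gpm6a, Coprs, Tcim, Mrc1, Aplnr, Dlc1, Kcnj8, Nr4a2, Sgk1 and Depp1, with gaps of 2.81 to 3.29. Of these, Mrc1 and Aplnr are among the 50 endothelial genes above. Gpm6a, a membrane glycoprotein gene, had 3.01 in WT replicate 1 and 6.31 to 9.17 elsewhere. Kcnj8, a potassium channel subunit gene of vessel walls, had 5.10 there and 8.17 to 10.17 elsewhere, and its partner Abcc9 had 7.03 and 9.14 to 11.61. Nr4a2, an immediate early gene, had 5.57 in WT replicate 1 and 8.58 to 12.17 elsewhere. Of the 91 genes with a gap of at least 1, the members made up 9.89% and the other endothelial genes on the list 8.79%. Over all genes they number 34 and 50 of 18193. Both lists were drawn up with earlier results of these arrays known, so these shares are given for scale only.

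Within Lig4mut the arrays were uneven in another way. Lig4mut replicate 3 was the lowest Lig4mut array for 21 of 34 members, against 31% of all genes, and lay below the mean of the other 2 by a median of 0.61. Its low members were Clec14a at 4.05, Dnase1l3 at 4.88, Flt1 at 5.11 and Kdr at 6.31. Lig4mut replicate 2 was the highest of the 6 arrays for 16 members, against 25.9% of all genes, and Lig4mut replicate 1 for 11, against 20%. In Lig4mut replicate 2 the 4 members Ecscr, Plvap, Nid1 and Lama4 lay at least 1 above every other array, as did 3.9% of all genes. The genes with the widest gap above all others in that array were Klhl41, Prg2, Prg3, Cnpy1, Epx, Gstm6, Mmp8, Klk4, Klk13 and Igfbp5, among which Prg2, Prg3 and Epx are granule genes of eosinophils and Mmp8 a neutrophil protease. The part of its granulocyte transcripts in the members' levels was not tested.

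Between the genotypes, 31 of 34 members had a higher mean in Lig4mut, and the size of the difference moved with single arrays, most with WT replicate 1 in the downward direction. The median difference (Lig4mut minus WT) was 0.58, and the share of members higher was 91.2% against 61.4% of all genes, whose median was 0.18. Without WT replicate 1 the median of the members was 0.16, with 23 of 34 higher (67.6% against 62.9% of all genes), and that of all genes again 0.18. Without Lig4mut replicate 2 it was 0.45, with 25 higher. Without Lig4mut replicate 1 the members' median was 0.43, with 27 higher. Leaving out the other arrays moved it the other way, to 0.99 without Lig4mut replicate 3, 0.90 without WT replicate 3 and 0.62 without WT replicate 2. The members lay above all genes by 0.40 with the 3 WT arrays and by -0.02 without WT replicate 1. In the values as deposited 27 of 34 were higher. Genotype medians of other lists were 0.70 for adipocytes, 0.63 for B cells, 0.63 for other basement membrane and matrix genes and 0.57 for megakaryocytes. They were smaller for smooth muscle and pericytes (0.48), macrophages (0.36), T and NK cells (0.35), granulocytes (0.32), mesenchymal stroma (0.20) and erythroid cells (-0.08). Of the HSC and sort markers, 9 of 12 were lower, with a median of -0.58. The part of these lists in the members' difference was not tested.

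The 9 members with WT replicate 1 at least 1 below every other array were picked for that array, so leaving it out must lower their difference, and the values only give the size. Over these 9 genes differences ran from 0.80 to 1.97, with a median of 1.22, and without WT replicate 1 from -0.04 to 0.84, with a median of 0.19. Cdh5 went from 1.97 ± 1.03 (SE, n = 3 arrays per genotype) to 0.84 ± 0.34, and Nid1 from 1.91 ± 1.59 to 0.26 ± 0.84. Sparc went from 1.30 ± 0.98 to 0.20 ± 0.24, and Fabp4 from 1.22 ± 1.00 to 0.14 ± 0.41. With all arrays, none of these 4 differences reached 2 SE. Members that were lowest in WT replicate 1 by less than 1 varied. Lepr went from 0.77 ± 0.43 to 0.69 ± 0.53, but Mmrn2 from 0.01 ± 1.14 to -1.11 ± 0.75 and Plvap from 0.81 ± 0.96 to 0.10 ± 0.93. Differences changed sign without this array in 8 members, Clec14a, Ecscr, Mmrn2, Flt1, Flt4, Tfpi, Col4a1 and Lamc1. Some of these ended close to no difference, with Ecscr at -0.0005 ± 0.84, Flt4 at -0.04 ± 0.38 and Tfpi at -0.07 ± 0.58. Signs also changed in 6 members without Lig4mut replicate 2 and in 4 without Lig4mut replicate 1. Leaving out WT replicate 2, WT replicate 3 or Lig4mut replicate 3 changed 3, 0 and 2 signs.

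Some members had differences of like size with and without WT replicate 1. Pecam1 was at 1.48 ± 0.41 with all arrays (2.79-fold) and at 1.81 ± 0.38 without WT replicate 1, and Sox18 at 1.18 ± 0.31 (2.27-fold) and 1.02 ± 0.35. Stab1 was at 1.77 ± 0.72 and 1.44 ± 0.82, and its genotypes overlapped, since WT replicate 3 at 8.91 lay above Lig4mut replicate 2 at 8.59. Lower in Lig4mut were Adgrl4 at -0.49 ± 0.39, Cav1 at -0.39 ± 0.18 and Egfl7 at -0.33 ± 0.22. Adgrl4 was at -0.08 without Lig4mut replicate 2, so that array carried most of its difference. Egfl7 was at -0.01 with median-centred arrays and at 0.20 with the mean of its 4 probe sets. Cav1 lay between -0.58 and -0.25 in the alternatives that tested it.

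No member passed the threshold over all genes. The adjusted p of the members lay between 0.158 and 1 (limma, Benjamini-Hochberg over all genes), and 0 of 34 passed with all arrays, where 0.011% of all genes (2 of 18193) passed. No member tested passed in the 14 alternatives, in which 0 to 4 genes passed. With dim genes left out, only 28 members were tested. At an unadjusted p under 0.05 there were 2 higher members, Pecam1 and Sox18, and 0 lower ones, beside 15.5% of all genes higher and 4.18% lower. By main probe sets, the arrays did not overlap, with Lig4mut higher, for 4 members (Cdh5, Pecam1, Sox7 and Sox18). That is 11.8% against 21% of all genes. With Lig4mut lower they did not overlap for Cav1, or 2.94% against 5.65%. These shares are descriptions, since the arrays that chose the members also make up this comparison. Further probe sets could differ. That of Cdh5 overlapped, with 6.02 in Lig4mut replicate 3 and 7.88 in WT replicate 2. That of Col4a1 did not, with at most 10.56 in WT and at least 10.99 in Lig4mut. The exact permutation test of 3 arrays against 3 cannot go below p = 0.1.

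**Figure D4:**
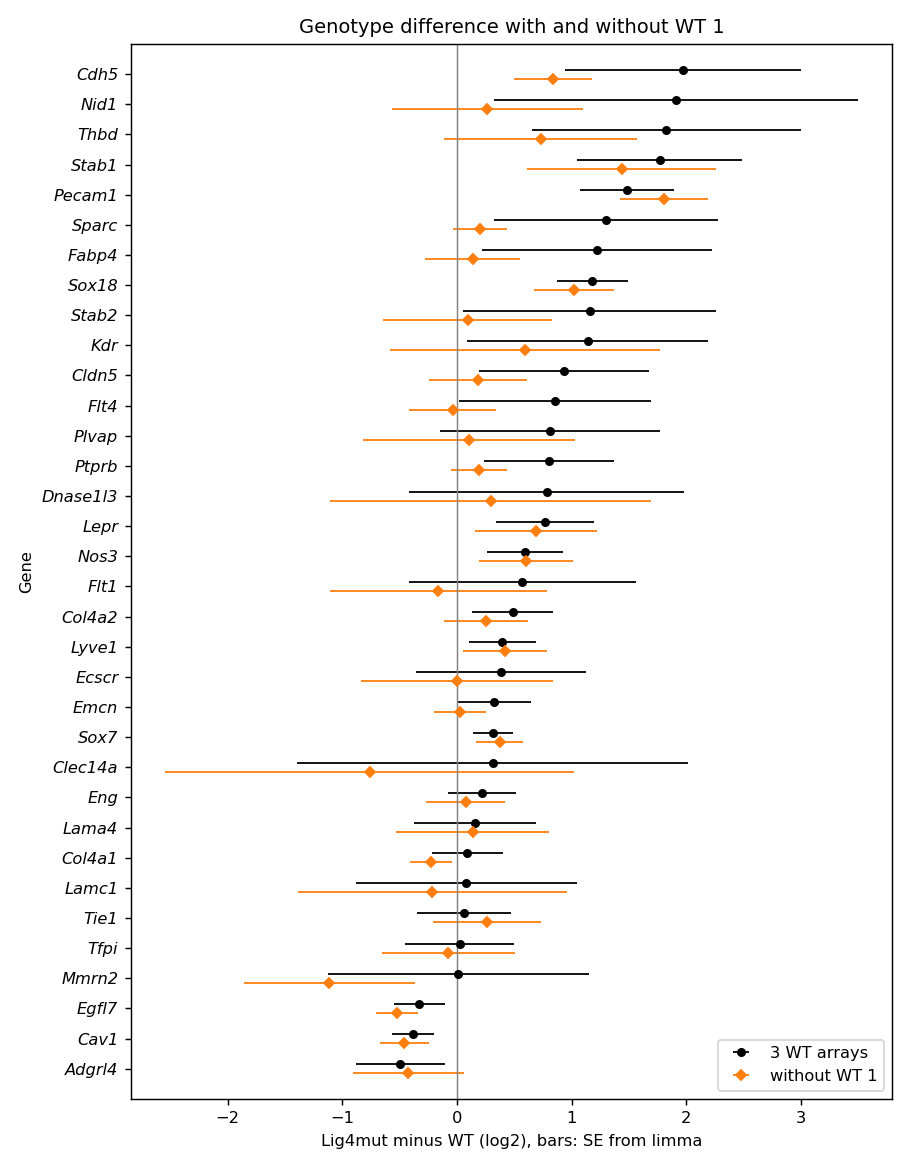
For each member, the log2 difference (Lig4mut minus WT) and its limma standard error, with all 3 WT arrays (black circles) and without WT replicate 1 (orange diamonds). Nid1 moves from 1.91 to 0.26, while Pecam1 stays above 1 in both.

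In the 50 endothelial genes outside the panel, 34 were higher and 16 lower in Lig4mut, with a median of 0.24. That is 68% higher, against 61.4% of all genes. None passed over all genes (limma), and at an unadjusted p under 0.05 there were 6 higher and 1 lower, beside 15.5% and 4.18% of all genes. The genotypes did not overlap, with Lig4mut higher, for 8 of the 50, or 16% against 21% of all genes. Sox17, a further SOX gene of endothelium, had 3.39, 3.78 and 4.28 in WT and 4.91, 6.38 and 6.16 in Lig4mut, and Nrp2, a co-receptor of VEGF, 6.87, 6.41 and 7.01 in WT and 7.85, 8.79 and 7.55 in Lig4mut. Both are among these 8. Erg, an ETS factor of HSC and endothelium, had 11.38, 11.34 and 11.37 in the WT arrays and 11.16, 10.75 and 10.26 in the Lig4mut arrays. Without WT replicate 1 the list had 28 of 50 higher, or 56% against 62.9% of all genes, and a median of 0.23.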

How the data were processed

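Total RNA of sorted HSC was profiled on 1-colour Affymetrix arrays, 3 per genotype. The authors deposited log2 expression values of each probe set, and the submitters' processing notes name RMA. No value lies under 3, and how that floor arose is not stated in the sources used. The series design text names a whole-transcriptome amplification kit, while the labels' protocol names standard cRNA labelling. Arrays have no read depth, so their number limits precision.

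Gene names came from the platform annotation in GEO, with symbols updated to NCBI's GRCm38.p6 table. Control probe sets and those naming several genes or none were left out. Values were quantile normalized, a gene was represented by its probe set of highest mean (chosen anew where an array was left out), and genotypes were compared with limma 3.58.1 in R 4.3.3 (two-sided, Benjamini-Hochberg, threshold 0.05, 18193 genes, no filter). The fit was tested on simulated data. Samples labelled as replicates of a genotype were taken as such.

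The members and lists were chosen with earlier results of these data known. All members are named. Other genes follow a rule or were chosen after the values were seen. The rule took the 10 with the widest gap above all other arrays in the array where the members' median deviation is highest. From the marker lists it took genes of the highest mean or of the largest deviation in that array. Further genes of these lists, such as Jam2, Arhgef15, Gpr182, Foxc1, Sox17 and Nrp2, were chosen after. Alternatives were 3 other scalings, the mean of probe sets, a filter at the 40th percentile, robust moderation with a variance trend, weighted arrays, a replicate block and leaving out each array.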

Additional observations from a re-analysis of the deposited data

How the results depend on the processing

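The members' median difference of 0.58 stayed above 0 under all 14 alternatives, between 0.16 without WT replicate 1 and 0.99 without Lig4mut replicate 3, and 31 members were higher with the replicate block as without it. Relative to all genes the median was 0.40 in the values as deposited and with median centring, 0.42 with cyclic loess, and -0.02 without WT replicate 1. The members lower in Lig4mut numbered 3, and 7 in the values as deposited, 5 with array weights and 3 to 11 without each array in turn. Genes past the threshold numbered 2 of 18193 (limma, 3586 at an unadjusted p under 0.05). They were 0 with the mean of probe sets (3795), 0 with dim genes left out (1449) and 4 with a variance trend (3240). Without each array there were 0 to 0 (2308 to 4110 at an unadjusted p under 0.05). With the replicate number as a block there were 0 (2868). Replicates of the same number deviated together by r = 0.036, 0.010 and -0.032 across genes, so the number is not taken as a pairing. The members with WT replicate 1 lowest by at least 1 numbered 9 to 11 under 3 scalings and with averaged probe sets, and 9 to 13 over the remaining arrays when another array was left out, alternatives chosen after the data were seen. The cause of these moves was not tested. Dim members (Cav1, Lyve1, and probe sets at the floor in 5 cases) bound what these arrays can show.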
